A study of Homo sapiens with 20 samples.

Results

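Axon guidance cues and their receptors were followed through the differentiation of human embryonic stem cells towards endoderm, in wild-type cells and in 2 knockout clones of the long noncoding RNA DIGIT. The members were all features whose symbol belonged to the ephrins, the EPH receptors, semaphorin classes 3 to 7, the plexins, the neuropilins, the netrins, the UNC5 receptors, the slits or the ROBO receptors. These symbols gave 68 members of the 54435 features counted, and all 68 were among the 16792 features that passed the filter on low counts. There were 35 ligands (8 ephrins, 20 semaphorins, 4 netrins and 3 slits) and 33 receptors (14 EPH receptors, 9 plexins, 2 neuropilins, 4 UNC5 receptors and 4 ROBO receptors).

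Guidance cues are secreted or membrane-bound proteins that attract or repel a growing axon or a migrating cell through receptors on its surface. Ephrins are bound to the membrane and signal through EPH receptor tyrosine kinases, and semaphorins signal through plexins, with neuropilins as co-receptors for most of class 3. Netrins act through DCC, neogenin and UNC5 receptors, and slits through ROBO receptors. The same families act outside the nervous system, where they take part in cell sorting, epithelial boundaries, blood vessel growth and the cell movements of the early embryo.

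All cells were of the H1 human embryonic stem cell line. The groups were the DIGIT knockout clone KO2, the DIGIT knockout clone KO1 and wild-type (WT) cells, each at day 4 and at day 0, with 2 RNA-seq libraries in each of the 6 groups. The day 4 cells were given Activin A at 50 ng/ml, a TGF-beta family ligand used to drive cells towards definitive endoderm, in RPMI medium supplemented by B27, and the day 0 cells were kept in the stem cell medium mTeSR1. Each knockout is 1 clone, so an effect of the clone and an effect of the knockout cannot be told apart. Nothing in the labels says that the 2 libraries of a group came from separate cultures. The p-values therefore measure the spread between these libraries, which may be technical. No feature bore the name DIGIT or GSC-DT, and the targeted RNA was not analysed here.

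The libraries held 9942016 to 21394547 counted reads, at which 3 counts correspond to 0.133 to 0.294 counts per 1000000 counted reads (CPM). The replicate libraries of KO1 at day 0 differed from each other more than any other pair, with a chi-square of 22.1 per feature, against 1.91 to 3.95 in the other 5 pairs. The marker genes of definitive endoderm, 8 in all, summed to 1004 to 1244 CPM in KO2, 5394 to 5484 CPM in KO1 and 4839 to 5364 CPM in WT at day 4, and to 6.43 to 14.2 CPM over the 6 day 0 libraries. CER1 alone made up a mean of 866, 4490 and 4032 CPM of these sums in KO2, KO1 and WT at day 4. At day 4 all 8 were lower in KO2 than in WT, and in KO1 3 of 8 were lower and 0 higher. Summed pluripotency markers (7 genes) stood at 3790 to 3826 CPM in KO2, 3344 to 3350 CPM in KO1 and 3384 to 3469 CPM in WT at day 4. Of these 7 genes 5 were higher and 1 lower in KO2 than in WT, and 1 was higher and 1 lower in KO1 than in WT. The neuroectoderm list summed to 1006 to 1027 CPM in KO2, 1050 to 1101 CPM in KO1 and 787 to 823 CPM in WT, of which NES alone made up a mean of 987, 1034 and 766 CPM in KO2, KO1 and WT. Of its 6 tested genes 2 were higher and 2 lower in KO2 than in WT, and 1 was higher in KO1 than in WT. The mesoderm list summed to 10.4 to 11.4, 39.2 to 41.5 and 15.8 to 19.1 CPM in KO2, KO1 and WT, with PDGFRA at a mean of 8.30, 33.9 and 14.1 CPM. Of 5 tested mesoderm genes 1 was lower in KO2 than in WT and 3 were higher in KO1. The endothelial list summed to 17.6 to 22.1, 31.4 to 32.2 and 23.4 to 25.7 CPM, with TEK at 14.7, 24.5 and 20.6 CPM. Of 5 tested 1 was higher in KO1 and 0 passed in KO2. The neural crest list summed to 20.6 to 21.2, 23.0 to 23.2 and 21.4 to 26.4 CPM. Of 4 tested 1 was lower in KO2, and 1 was higher and 1 lower in KO1. The endothelial marker EMCN had 0 counts in every day 4 library and PECAM1 in those of WT and KO1. At day 4 these lists did not all differ between genotypes in the same direction, and their part in the members' differences was not tested. In such bulk libraries, fewer cells of a type and less RNA per cell cannot be told apart.

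Between day 4 and day 0 fewer guidance genes were higher and more were lower in KO2 than in KO1 or WT. By edgeR's quasi-likelihood test with Benjamini-Hochberg adjustment over all 16792 features, at an adjusted p below 0.05, 15 members were higher at day 4 than at day 0 in KO2, 22 were lower and 31 did not pass, where 25.0% of all features were higher and 25.7% lower. In KO1 30 members were higher and 17 lower, where 29.1% of all features were higher and 29.3% lower. In WT 33 members were higher, 15 were lower and 20 did not pass, where 24.3% of all features were higher and 25.4% lower. Of the 33 members higher at day 4 in WT, 13 (39.4%) were also called higher in KO2 and 28 (84.8%) in KO1. Over all features the shares were 2516 of 4075 (61.7%) in KO2 and 3176 of 4075 (77.9%) in KO1. The same members made up 86.7% of the 15 higher in KO2 and 93.3% of the 30 higher in KO1, where the shares over all features were 60% and 65%. Of the 15 members lower at day 4 in WT, 13 (86.7%) were called lower in KO2 and 13 in KO1, which is 59.1% of the list of KO2 and 76.5% of that of KO1. Over all features lower in WT the shares were 69.6% in KO2 and 78.8% in KO1, which is 68.7% and 68.1% of the lists of KO2 and KO1.

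At day 4 the guidance genes differed from WT far more often downward than upward in KO2, and about equally in both directions in KO1. In KO2 5 members were higher than in WT and 32 lower, where 13.5% of all features tested were higher and 14.5% lower. The members' median log2 fold change was -0.43, against 0.01 over all features tested. In KO1 9 members were higher than in WT and 11 lower, where 10.5% of all features were higher and 9.42% lower, with a median of -0.03 over the members and 0.01 over all features. Between the clones 5 members were higher in KO2 than in KO1 and 31 lower, where 10.8% of all features were higher and 14.3% lower, with medians of -0.37 and 0.00. KO2 and KO1 were set against the same 2 WT libraries, so their differences from WT share an error. The KO1 counts depended on single libraries. They were 2 higher and 8 lower with WT library 2 of day 4 left out, and 2 and 6 with KO1 library 1 of day 4 left out. They were 5 and 6 with KO1 library 2 or WT library 1 of day 4 left out, and 15 and 17 with either KO1 library of day 0 left out. The calls over all features moved too, with 2675 higher and 2553 lower of 17292 without KO1 library 1 of day 0 and 758 and 595 of 17345 without KO1 library 1 of day 4, against 1755 and 1582 of 16792 with all libraries. Fewer members were higher in KO2 than in WT without either WT day 4 library, and more were without either KO1 day 0 library. More members were also higher in KO2 than in KO1 without either KO1 day 0 library. In each of these cases the calls over all features moved in the same direction.

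**Figure D1:**
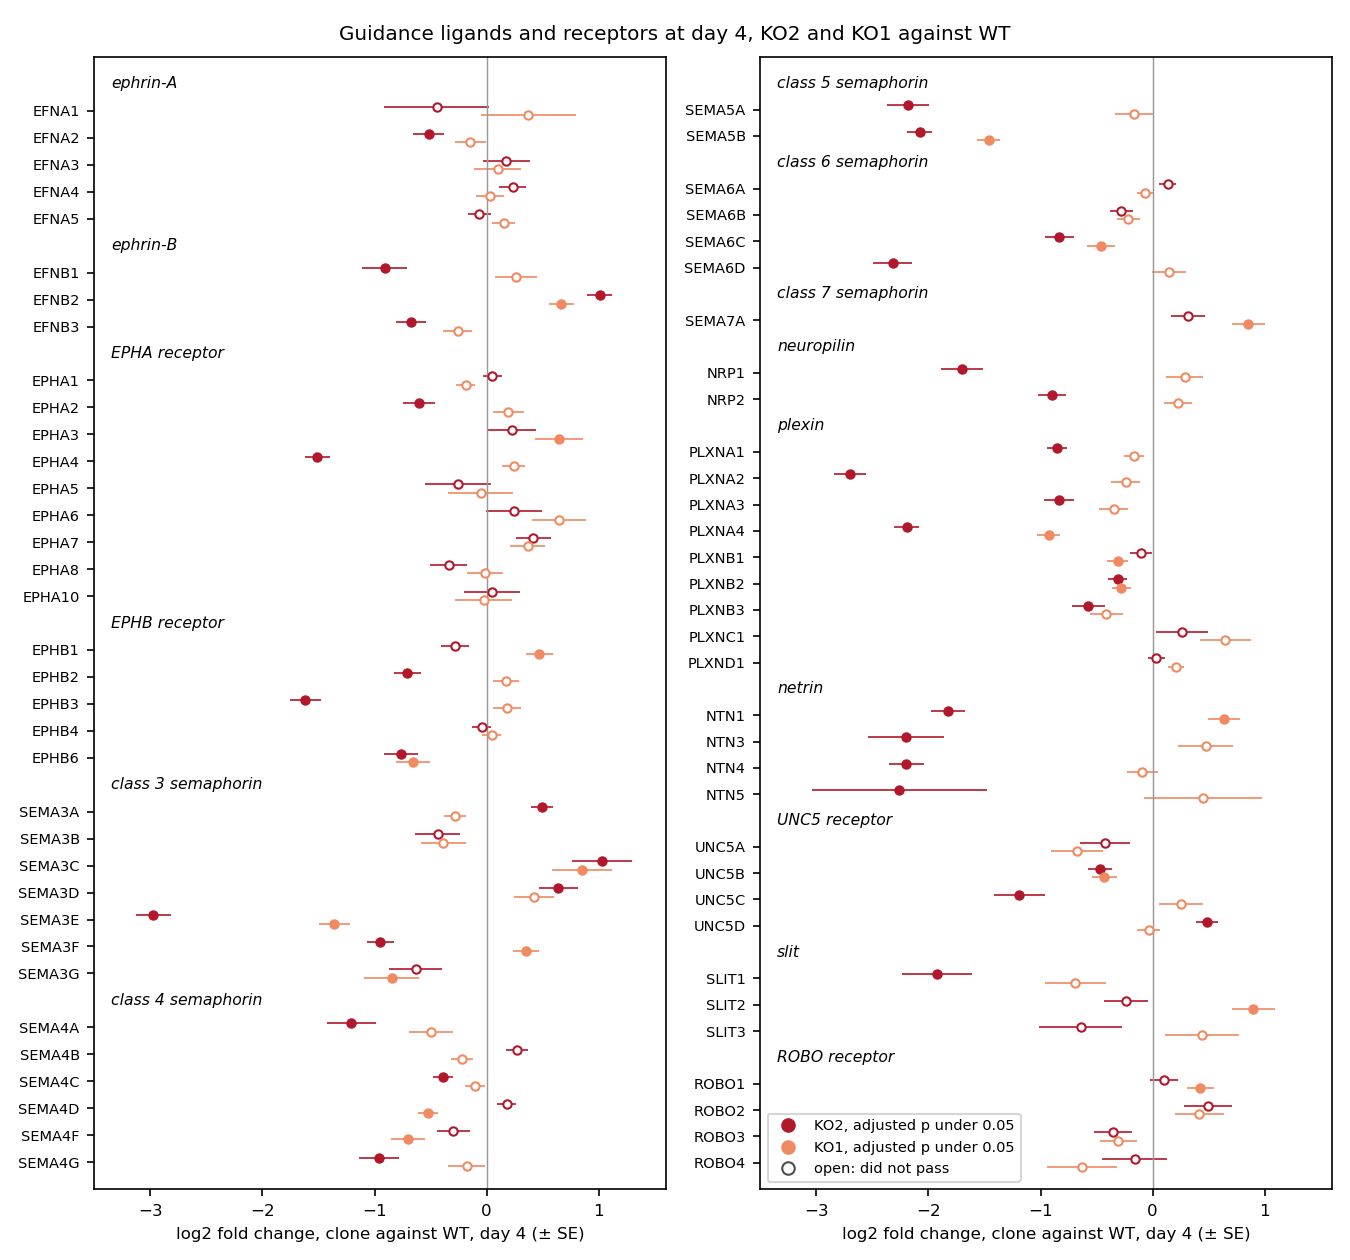
Log2 fold change of each guidance gene at day 4, KO2 against WT and KO1 against WT, with the standard error from edgeR as bars and filled points for members that passed an adjusted p of 0.05. The longest runs left of 0 belong to KO2, where 32 members were lower, and SEMA3E stands farthest left at -2.97.

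By family, every netrin (4 of 4) and every neuropilin (2 of 2) was lower in KO2 than in WT at day 4, and so were both class 5 semaphorins. The plexins followed with 6 of 9 lower and 0 higher, the semaphorins with 9 of 20 lower and 3 higher, the EPH receptors with 5 of 14 lower and 0 higher, and the ephrins with 3 of 8 lower and 1 higher. Of the UNC5 receptors 2 of 4 were lower and 1 higher, of the slits 1 of 3 was lower and 0 higher, and none of the 4 ROBO receptors passed the test in KO2. In KO1 0 of 2 neuropilins passed, 1 of 4 netrins was higher, 3 of 9 plexins were lower, and 3 of 20 semaphorins were higher and 6 lower. The ephrins had 1 member higher in KO1, the EPH receptors 2 higher and 1 lower, the UNC5 receptors 1 lower, the slits 1 higher and the ROBO receptors 1 higher. Over all features tested 13.5% were higher and 14.5% lower in KO2 than in WT at day 4, and 10.5% were higher and 9.42% lower in KO1. With 2 to 20 members each, the family counts describe the families and were not tested as groups or against these shares.

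**Figure D2:**
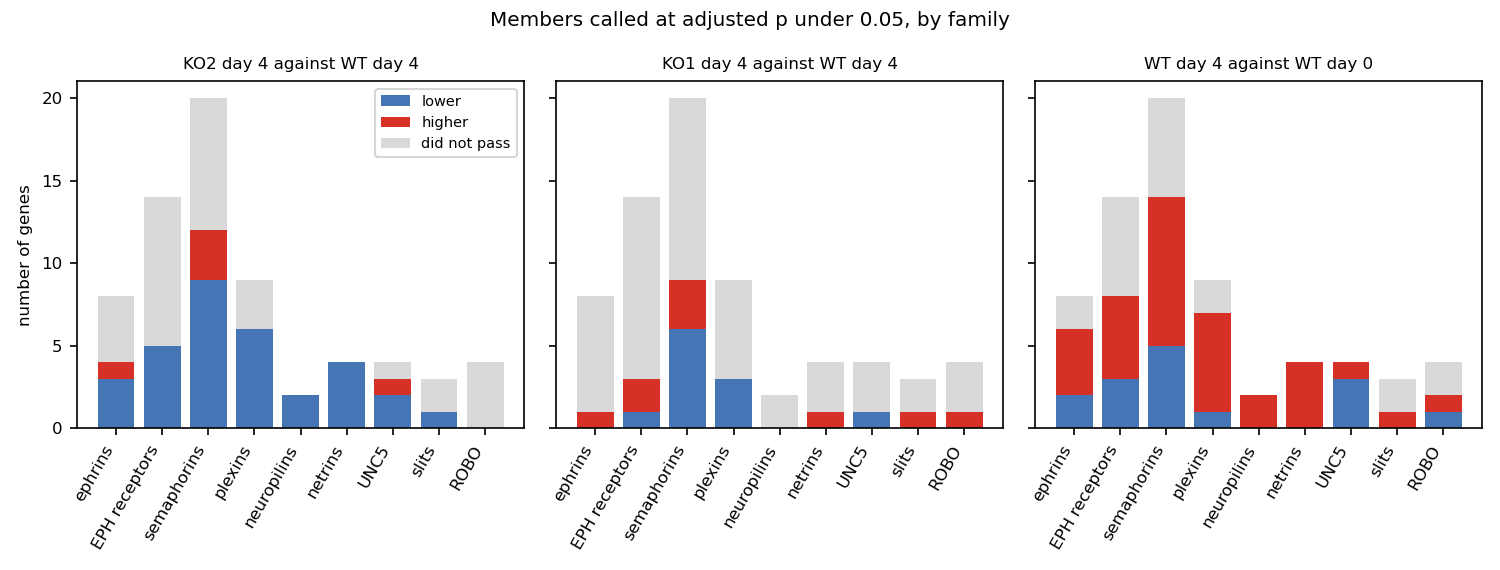
Number of members of each family that were higher or lower at an adjusted p below 0.05 at day 4, in KO2 against WT and in KO1 against WT, and in WT day 4 against WT day 0, with members that did not pass in grey. The netrins show 4 of 4 members lower in KO2, against 1 of 4 higher in KO1. Over all features 13.5% were higher and 14.5% lower in KO2, and 10.5% higher and 9.42% lower in KO1. Between day 4 and day 0 in WT 24.3% were higher and 25.4% lower.

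All 4 netrin genes were higher at day 4 than at day 0 in WT and in KO1, and at day 4 lower in KO2 than in WT. NTN1, the founding secreted netrin and a ligand of DCC and the UNC5 receptors, had 32.9 and 22.5 CPM in KO2, 161 and 143 CPM in KO1 and 103 and 92.7 CPM in WT at day 4. At day 0 NTN1 had 7.02 and 4.70 CPM in KO2, 6.15 and 6.63 CPM in KO1 and 6.97 and 5.51 CPM in WT. The KO2 libraries lay below both WT libraries and the KO1 libraries above them at day 4, and the 3 genotypes overlapped at day 0. The log2 fold change from WT was -1.82 ± 0.15, adjusted p = 5.65e-07 in KO2 (± standard error, here and throughout) and 0.64 ± 0.14, adjusted p = 0.00506 in KO1. The KO1 call was lost when 1 of 2 libraries was left out, where its adjusted p was 0.0747 with WT library 2 of day 4 left out and 0.0768 with KO1 library 1 of day 4 left out, within a range of 1.36e-07 to 0.0768 over the 18 alternatives. Between day 4 and day 0 NTN1 rose by 2.23 in KO2, 4.57 in KO1 and 3.98 in WT on the log2 scale. NTN4, a netrin of basement membranes that binds laminin, had 4.81 and 4.28 CPM in KO2, 20.8 and 18.4 CPM in KO1 and 21.3 and 20.4 CPM in WT at day 4. At day 0 NTN4 had 3.28 and 3.53 CPM in KO2, 2.75 and 3.51 CPM in KO1 and 3.68 and 2.97 CPM in WT. KO2 stood apart below the overlapping KO1 and WT libraries at day 4, with a log2 fold change from WT of -2.20 ± 0.16, adjusted p = 1.2e-07 in KO2. In KO1 NTN4 gave -0.09 ± 0.14, adjusted p = 0.695. Its log2 change between day 4 and day 0 was 0.41 ± 0.21, adjusted p = 0.11 in KO2, which missed the threshold, and 2.66 ± 0.17, adjusted p = 6.65e-09 in WT. The other netrins, NTN3 and NTN5, were measured at few counts and are named here only to complete the family. NTN3 had 0.642 and 0.468 CPM in KO2, 3.37 and 3.71 CPM in KO1 and 2.67 and 2.45 CPM in WT at day 4, and differed from WT, with a log2 fold change of -2.20 ± 0.34, adjusted p = 0.000206 in KO2. NTN5 had 0.241 and 0.0669 CPM in KO2, 1.47 and 0.619 CPM in KO1 and 0.839 and 0.644 CPM in WT at day 4, and its KO2 libraries held 3 and 1 counts, against 11 and 10 in WT (adjusted p = 0.0423).

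The UNC5 receptors, which mediate repulsion from netrins, did not move as one group. UNC5A had 3.21 and 3.81 CPM in KO2, 2.42 and 3.44 CPM in KO1 and 4.58 and 4.90 CPM in WT at day 4. At day 0 UNC5A had 20 and 15.5 CPM in KO2, 17.6 and 19.4 CPM in KO1 and 16.4 and 13.5 CPM in WT. Every day 4 library was below every day 0 library, and the day change was -2.33 ± 0.19, adjusted p = 1.77e-07 in KO2, -2.64 ± 0.19, adjusted p = 2.04e-08 in KO1 and -1.64 ± 0.19, adjusted p = 3.12e-06 in WT. UNC5B, which is also known from blood vessel endothelium, had 64.1 and 66.4 CPM in KO2, 70.9 and 63.6 CPM in KO1 and 93.9 and 87.2 CPM in WT at day 4. At day 0 UNC5B had 121 and 120.4 CPM in KO2, 124 and 96.4 CPM in KO1 and 141 and 128 CPM in WT. The libraries of both clones lay below those of WT at day 4, with a log2 fold change of -0.47 ± 0.11, adjusted p = 0.00464 in KO2. In KO1 UNC5B gave -0.43 ± 0.11, adjusted p = 0.0118. The adjusted p in KO1 was 0.0892 with WT library 1 of day 4 left out and 0.126 with KO1 library 2 of day 4 left out, within a range of 4.84e-05 to 0.126 over the 18 alternatives. UNC5D, which also binds the adhesion protein FLRT2, had 95.3 and 108 CPM in KO2, 71.1 and 70.4 CPM in KO1 and 71.3 and 73.6 CPM in WT at day 4. At day 0 UNC5D had 111 and 108 CPM in KO2, 108 and 135 CPM in KO1 and 116 and 114 CPM in WT. At day 4 it was higher in KO2 than in WT, with a log2 fold change of 0.49 ± 0.10, adjusted p = 0.00186, and it was the one UNC5 gene that was. The KO1 libraries lay just under those of WT (-0.04 ± 0.10, adjusted p = 0.854) and did not pass. UNC5C was lower in KO2 than in WT at day 4, with a log2 fold change of -1.19 ± 0.23, adjusted p = 0.00117.

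Both neuropilins and 6 of the 9 plexins were lower in KO2 than in WT at day 4, and among them were genes with the largest rises in WT. NRP1, a co-receptor for class 3 semaphorins and for VEGF, had 6.74 and 5.49 CPM in KO2, 24.3 and 23.9 CPM in KO1 and 20.4 and 19.2 CPM in WT at day 4. At day 0 NRP1 had 1.40 and 2.55 CPM in KO2, 2.58 and 1.65 CPM in KO1 and 2.32 and 1.70 CPM in WT. The KO2 libraries lay under all KO1 and WT libraries at day 4, with -1.70 ± 0.19, adjusted p = 1.06e-05 in KO2 against WT and 0.28 ± 0.16, adjusted p = 0.254 in KO1 against WT. NRP2, the other neuropilin, was also lower in KO2, with a log2 fold change of -0.90 ± 0.13, adjusted p = 9.49e-05. PLXNA2, a plexin that pairs with neuropilins for class 3 semaphorins and binds class 6 semaphorins directly, had 60.6 and 44.8 CPM in KO2, 306 and 271 CPM in KO1 and 381 and 301 CPM in WT at day 4. At day 0 PLXNA2 had 16.5 and 13.8 CPM in KO2, 14.3 and 13.7 CPM in KO1 and 18.4 and 15.3 CPM in WT. Its log2 change between day 4 and day 0 was 1.79 ± 0.17, adjusted p = 5.45e-07 in KO2 and 4.35 ± 0.16, adjusted p = 1.65e-11 in WT, the largest rise in WT of the 68 members. The KO2 libraries lay far below the overlapping KO1 and WT libraries at day 4, with -2.70 ± 0.14, adjusted p = 4.41e-09 in KO2. In KO1 PLXNA2 gave -0.24 ± 0.13, adjusted p = 0.219.

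PLXNA4, a plexin with the same partners as PLXNA2, separated all 3 genotypes. It had 16.8 and 15.2 CPM in KO2, 39.3 and 37.6 CPM in KO1 and 78.3 and 67.9 CPM in WT at day 4. At day 0 PLXNA4 had 16.1 and 16.6 CPM in KO2, 15.9 and 14.3 CPM in KO1 and 16.2 and 15.5 CPM in WT. KO2 was lowest, KO1 intermediate and WT highest at day 4 with no overlap, while all day 0 libraries lay within 14.3 to 16.6 CPM. Its log2 fold change from WT was -2.19 ± 0.11, adjusted p = 2.64e-09 in KO2. In KO1 PLXNA4 gave -0.93 ± 0.10, adjusted p = 1.66e-05, and between KO2 and KO1 it was -1.27 ± 0.11, adjusted p = 9.76e-07. The day 4 libraries of KO2 spanned those of its day 0, with a change of -0.03 ± 0.12, adjusted p = 0.839, while WT changed, with a log2 fold change of 2.21 ± 0.11, adjusted p = 4.4e-10. PLXNB2, a receptor of class 4 semaphorins, had 107 and 117 CPM in KO2, 114 and 116 CPM in KO1 and 139.6 and 139 CPM in WT at day 4. At day 0 PLXNB2 had 182 and 176 CPM in KO2, 195 and 182 CPM in KO1 and 207 and 176 CPM in WT. Both clones lay below WT at day 4, with a log2 fold change of -0.31 ± 0.09, adjusted p = 0.0132 in KO2. In KO1 PLXNB2 gave -0.28 ± 0.09, adjusted p = 0.0324. In KO2 the adjusted p was 0.06 with WT library 1 of day 4 left out and 0.116 with KO2 library 1 of day 4 left out, within a range of 0.000352 to 0.116 over the 18 alternatives. In KO1 it was 0.113 with WT library 1 of day 4 left out, 0.108 with WT library 2 of day 4 left out, 0.189 with KO1 library 1 of day 4 left out and 0.119 with KO1 library 2 of day 4 left out, within a range of 0.00178 to 0.189 over the 18 alternatives. PLXND1, the plexin that binds SEMA3E without a neuropilin, had 124 and 129 CPM in KO2, 144 and 141 CPM in KO1 and 124 and 123 CPM in WT at day 4. It is named here as the receptor of the ligand with the largest change, and neither clone passed the test against WT (0.03 ± 0.07, adjusted p = 0.772 in KO2 and 0.21 ± 0.07, adjusted p = 0.0617 in KO1). The other plexins ranged in log2 fold change from -0.85 for PLXNA1 to 0.26 for PLXNC1 in KO2 against WT, with PLXNA1, PLXNA3 and PLXNB3 lower.

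Among the class 3 semaphorins, the secreted cues of which most act through neuropilins, SEMA3E was lower in both clones while 3 others were higher in KO2. SEMA3E, which repels endothelial cells through PLXND1, had 5.30 and 5.22 CPM in KO2, 16 and 16.2 CPM in KO1 and 45.1 and 37.6 CPM in WT at day 4. At day 0 SEMA3E had 2.72 and 1.86 CPM in KO2, 2.47 and 1.82 CPM in KO1 and 2.23 and 2.19 CPM in WT. The 3 genotypes overlapped at day 0 and did not overlap at day 4, where KO2 was lowest, KO1 intermediate and WT highest. The log2 fold change from WT was -2.97 ± 0.16, adjusted p = 4.79e-09 in KO2. In KO1 SEMA3E gave -1.36 ± 0.14, adjusted p = 8.46e-06, and KO2 was below KO1, with a log2 fold change of -1.61 ± 0.17, adjusted p = 4.97e-06. SEMA3A, the classical axon repellent that acts through NRP1, had 132 and 132 CPM in KO2, 73.4 and 80.8 CPM in KO1 and 85.6 and 102 CPM in WT at day 4. At day 0 SEMA3A had 50.1 and 48.9 CPM in KO2, 47.9 and 54.3 CPM in KO1 and 54.7 and 57.9 CPM in WT. Both KO2 libraries were above those of WT, with a log2 fold change of 0.49 ± 0.09, adjusted p = 0.00127, while KO1 had -0.28 ± 0.10, adjusted p = 0.0541 and missed the threshold. SEMA3C, a class 3 cue known from the outflow tract of the heart, had 8.35 and 9.30 CPM in KO2, 8.46 and 7.22 CPM in KO1 and 4.20 and 4.45 CPM in WT at day 4. At day 0 SEMA3C had 2.44 and 2.06 CPM in KO2, 2.03 and 4.80 CPM in KO1 and 2.52 and 2.68 CPM in WT. The libraries of both clones lay above those of WT at day 4, with a log2 fold change of 1.03 ± 0.27, adjusted p = 0.00951 in KO2. In KO1 SEMA3C gave 0.85 ± 0.27, adjusted p = 0.0384. For KO2 the adjusted p was 0.0789 with WT library 1 of day 4 left out, 0.0587 with WT library 2 of day 4 left out and 0.0755 with KO2 library 2 of day 4 left out, within a range of 6.77e-06 to 0.0789 over the 18 alternatives. For KO1 it was above 0.05 under 11 of 18 alternatives, 10 of them leaving out 1 library (WT library 1 of day 0, WT library 2 of day 0, KO2 library 1 of day 0, KO2 library 2 of day 0, WT library 1 of day 4, WT library 2 of day 4, KO1 library 1 of day 4, KO1 library 2 of day 4, KO2 library 1 of day 4, KO2 library 2 of day 4), within a range of 0.000559 to 0.21 over the 18 alternatives. SEMA3D, another class 3 cue, had 11.7 and 8.57 CPM in KO2, 8.80 and 8.53 CPM in KO1 and 6.56 and 6.38 CPM in WT at day 4. At day 0 SEMA3D had 5.06 and 6.37 CPM in KO2, 5.0 and 5.25 CPM in KO1 and 5.71 and 5.58 CPM in WT. Its KO2 libraries lay above those of WT, with a log2 fold change of 0.64 ± 0.17, adjusted p = 0.0126. That adjusted p was 0.0703 with WT library 1 of day 4 left out, 0.0829 with WT library 2 of day 4 left out and 0.201 with KO2 library 1 of day 4 left out, within a range of 0.00354 to 0.201 over the 18 alternatives. KO1 lay above WT too, with a log2 fold change of 0.42 ± 0.18, adjusted p = 0.113, and did not pass. Of the remaining class 3 genes SEMA3F was lower in KO2 (-0.95) and higher in KO1 (0.35), SEMA3G was lower in KO1 (-0.85), and SEMA3B passed in neither clone.

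**Figure D3:**
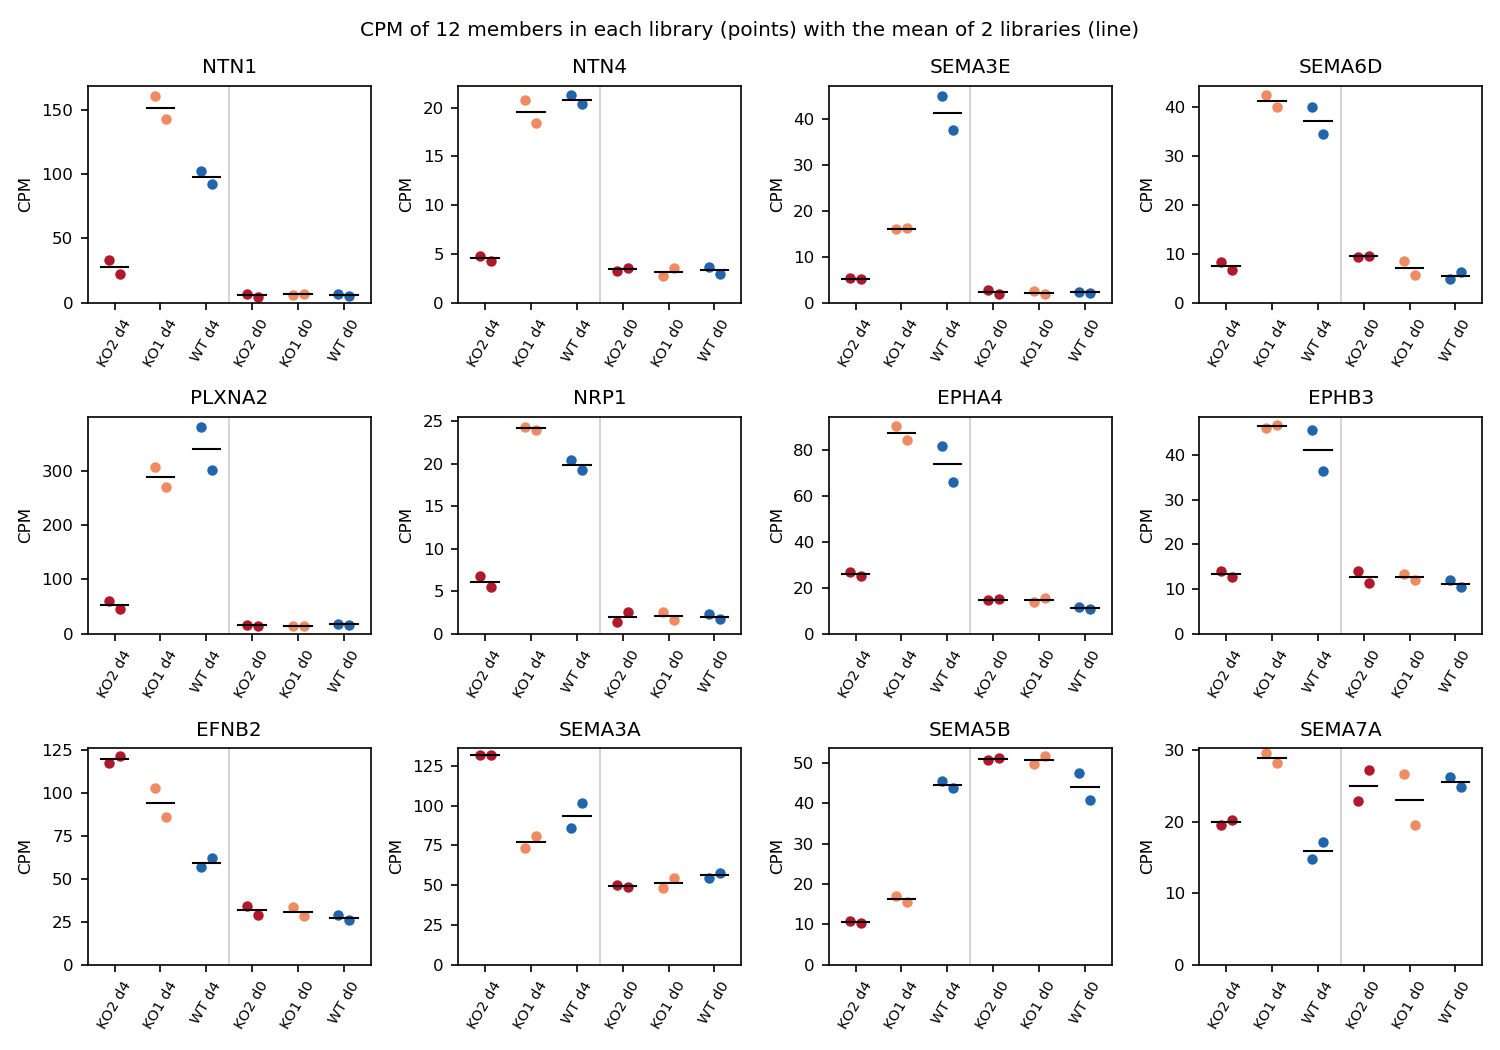
CPM of 12 members in every library, on linear axes from 0, by genotype and day, with 1 point for each library and a line at the mean of 2. NTN1, PLXNA2 and SEMA3E show KO2 day 4 libraries below those of KO1 and WT, and SEMA3E shows KO1 between KO2 and WT.

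Promoter windows, the 250 bases before the transcription start, were read from RefSeq's table for GRCh38.p14 for 58 of the 68 members. They are printed for SEMA3E, the member with the lowest log2 fold change in KO2 against WT at day 4. SEMA3E has 2 such windows at different starts. The window of PLXNA2, which had the largest rise in WT, is printed too. Each is written 5′ to 3′ on the gene's strand, with AGATAA, the GATA factor motif, or its reverse complement in capitals.
SEMA3E window 1 (chr7:83649140-83649389, minus strand): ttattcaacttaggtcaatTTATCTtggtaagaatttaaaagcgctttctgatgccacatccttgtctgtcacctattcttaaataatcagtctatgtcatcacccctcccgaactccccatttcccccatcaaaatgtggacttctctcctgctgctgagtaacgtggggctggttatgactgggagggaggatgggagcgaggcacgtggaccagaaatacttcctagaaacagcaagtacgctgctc
SEMA3E window 2 (chr7:83641432-83641681, minus strand): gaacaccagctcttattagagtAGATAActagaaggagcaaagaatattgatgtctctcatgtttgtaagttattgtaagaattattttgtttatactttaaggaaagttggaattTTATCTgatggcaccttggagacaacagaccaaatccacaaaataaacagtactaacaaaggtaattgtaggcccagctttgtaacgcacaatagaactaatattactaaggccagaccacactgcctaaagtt
PLXNA2 (chr1:208244385-208244634, minus strand): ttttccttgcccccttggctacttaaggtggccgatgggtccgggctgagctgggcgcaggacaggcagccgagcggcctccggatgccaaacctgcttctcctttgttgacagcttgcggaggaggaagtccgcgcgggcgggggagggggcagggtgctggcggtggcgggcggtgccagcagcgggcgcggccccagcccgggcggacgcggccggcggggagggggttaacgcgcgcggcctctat
Searched on both strands, AGATAA was in 9.17% of the 35114 windows of all genes, and it was in a window of 6 of the 58 members, of which 2 of the 27 with a window that were lower in KO2 and 4 of the 31 others. The share of all 27303 genes with AGATAA in any of their windows was 11.1%. The FOXA letters TGTTTAC were in a window of 3.66% of all genes and of 1 member, SEMA4B. The SOX letters ACAATGG were in a window of 3.2% of all genes and of 1 member, EPHA6. The T-box letters AGGTGTGA (0.982% of all genes) and the SMAD letters GTCTAGAC (0.231%) were in no member's window. The motifs do not overlap one another, and a match describes the letters only and says nothing of whether a factor binds there.

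Of the class 4 semaphorins, membrane proteins of which several bind class B plexins, SEMA4A, SEMA4B and SEMA4D were lower at day 4 than at day 0 in every genotype. SEMA4A, known from immune cells, had 2.41 and 1.94 CPM in KO2, 2.93 and 4.06 CPM in KO1 and 4.81 and 5.16 CPM in WT at day 4. At day 0 SEMA4A had 13.4 and 12.3 CPM in KO2, 11.7 and 10.4 CPM in KO1 and 11.2 and 10.7 CPM in WT. The KO2 libraries were lowest at day 4, with a log2 fold change of -1.21 ± 0.21, adjusted p = 0.000697 against WT, and of -0.71 ± 0.23, adjusted p = 0.0338 against KO1. The adjusted p of KO2 against KO1 was 0.358 with KO1 library 2 of day 4 left out, 0.0565 with KO2 library 1 of day 4 left out, 0.241 with KO2 library 2 of day 4 left out and 0.0913 with DESeq2, within a range of 0.0186 to 0.358 over the 18 alternatives. SEMA4B had 44.8 and 42.6 CPM in KO2, 30.6 and 31.8 CPM in KO1 and 36.2 and 36.3 CPM in WT at day 4. At day 0 SEMA4B had 81.4 and 78.1 CPM in KO2, 85 and 84.5 CPM in KO1 and 87.5 and 72.9 CPM in WT. Its KO2 libraries lay above those of KO1, with a log2 fold change of 0.48 ± 0.10, adjusted p = 0.00206, and the differences from WT did not pass. SEMA4D, the ligand of PLXNB1, had 45.7 and 44.2 CPM in KO2, 27.4 and 27.7 CPM in KO1 and 37.4 and 41.9 CPM in WT at day 4. At day 0 SEMA4D had 92.1 and 89.9 CPM in KO2, 94.8 and 94 CPM in KO1 and 91.4 and 90.3 CPM in WT. KO1 lay below WT, with a log2 fold change of -0.52 ± 0.09, adjusted p = 0.000779. KO2 lay above KO1, with a log2 fold change of 0.70 ± 0.09, adjusted p = 3.36e-05, while KO2 against WT gave 0.18 ± 0.09, adjusted p = 0.135. SEMA4F had 8.51 and 9.77 CPM in KO2, 7.68 and 6.26 CPM in KO1 and 10.8 and 11.7 CPM in WT at day 4. At day 0 SEMA4F had 8.43 and 9.01 CPM in KO2, 7.96 and 8.68 CPM in KO1 and 8.62 and 8.69 CPM in WT. KO1 lay below WT, with a log2 fold change of -0.70 ± 0.15, adjusted p = 0.00488. That adjusted p was 0.084 with KO1 library 2 of day 4 left out, within a range of 0.000528 to 0.084 over the 18 alternatives. Its day change in WT was 0.38 ± 0.15, adjusted p = 0.0472, and that adjusted p was above 0.05 under 10 of 18 alternatives, 7 of them leaving out 1 library (WT library 1 of day 0, WT library 2 of day 0, KO2 library 1 of day 0, KO2 library 2 of day 0, WT library 1 of day 4, WT library 2 of day 4, KO2 library 2 of day 4), within a range of 0.0202 to 0.183 over the 18 alternatives. Of the other 2, SEMA4C and SEMA4G were both lower in KO2 than in WT, with a log2 fold change of -0.39 ± 0.09 and -0.96 ± 0.18.

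The class 5 semaphorins, membrane proteins with thrombospondin repeats, were both lower in KO2, from different starting levels. SEMA5A had 24.5 and 17.6 CPM in KO2, 89.9 and 78.8 CPM in KO1 and 102 and 87.3 CPM in WT at day 4. At day 0 SEMA5A had 22.8 and 20.4 CPM in KO2, 21.9 and 33.3 CPM in KO1 and 18.2 and 23.5 CPM in WT. KO2 stood below the overlapping KO1 and WT libraries at day 4, with -2.18 ± 0.19, adjusted p = 7.17e-07 in KO2. In KO1 SEMA5A gave -0.17 ± 0.17, adjusted p = 0.534, and the day change of SEMA5A was -0.04 ± 0.20, adjusted p = 0.874 in KO2 and 2.17 ± 0.19, adjusted p = 1.79e-07 in WT. SEMA5B had 10.8 and 10.4 CPM in KO2, 16.9 and 15.5 CPM in KO1 and 45.5 and 43.7 CPM in WT at day 4. At day 0 SEMA5B had 50.6 and 51.1 CPM in KO2, 49.6 and 51.6 CPM in KO1 and 47.6 and 40.7 CPM in WT. Both clones were lower than WT at day 4, KO2 the lowest, and at day 0 the WT libraries lay just under those of the clones, with no difference that passed. The difference from WT was -2.08 ± 0.11, adjusted p = 4.82e-09 in KO2. In KO1 SEMA5B gave -1.46 ± 0.11, adjusted p = 2.39e-07. The day change of SEMA5B was -2.27 ± 0.11, adjusted p = 7.47e-10 in KO2, -1.65 ± 0.10, adjusted p = 3.9e-09 in KO1 and 0.02 ± 0.10, adjusted p = 0.881 in WT, where its libraries overlapped.

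In class 6, whose members bind class A plexins, SEMA6D, a ligand of PLXNA1, had 8.35 and 6.63 CPM in KO2, 42.4 and 40 CPM in KO1 and 39.9 and 34.5 CPM in WT at day 4. At day 0 SEMA6D had 9.27 and 9.60 CPM in KO2, 8.57 and 5.65 CPM in KO1 and 4.75 and 6.22 CPM in WT. KO2 was far below KO1 and WT at day 4, with a log2 fold change of -2.32 ± 0.18, adjusted p = 2.01e-07 against WT, and KO1 gave 0.15 ± 0.15, adjusted p = 0.545. SEMA6C had 17.4 and 16.7 CPM in KO2, 19.6 and 24.4 CPM in KO1 and 31.1 and 29.6 CPM in WT at day 4. At day 0 SEMA6C had 21.7 and 21 CPM in KO2, 23.3 and 22.3 CPM in KO1 and 22.4 and 18.1 CPM in WT. Both clones lay below WT at day 4, with a log2 fold change of -0.83 ± 0.13, adjusted p = 0.000204 in KO2. In KO1 SEMA6C gave -0.46 ± 0.13, adjusted p = 0.0178, and there its adjusted p was 0.101 with WT library 1 of day 4 left out, 0.0579 with WT library 2 of day 4 left out and 0.222 with KO1 library 1 of day 4 left out, within a range of 0.0021 to 0.222 over the 18 alternatives. KO2 against KO1 gave -0.37 ± 0.13, adjusted p = 0.0495. The adjusted p between KO2 and KO1 was above 0.05 under 11 of 18 alternatives, 7 of them leaving out 1 library (KO2 library 1 of day 0, KO2 library 2 of day 0, WT library 1 of day 4, WT library 2 of day 4, KO1 library 2 of day 4, KO2 library 1 of day 4, KO2 library 2 of day 4), within a range of 0.0119 to 0.444 over the 18 alternatives. SEMA6A and SEMA6B passed in neither clone against WT. SEMA7A, a GPI-anchored semaphorin that binds PLXNC1 and integrins, had 19.6 and 20.3 CPM in KO2, 29.6 and 28.3 CPM in KO1 and 14.8 and 17.1 CPM in WT at day 4. At day 0 SEMA7A had 22.9 and 27.2 CPM in KO2, 26.6 and 19.5 CPM in KO1 and 26.3 and 24.9 CPM in WT. KO1 lay above WT at day 4, with a log2 fold change of 0.85 ± 0.15, adjusted p = 0.000872, KO2 against WT gave 0.32 ± 0.15, adjusted p = 0.131, and KO2 was below KO1, with a log2 fold change of -0.54 ± 0.14, adjusted p = 0.0126. That last adjusted p was 0.0884 with KO1 library 1 of day 4 left out, 0.0758 with KO2 library 1 of day 4 left out and 0.068 with KO2 library 2 of day 4 left out, within a range of 0.000128 to 0.0884 over the 18 alternatives.

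Of the ephrins, EFNB2 was the one that was higher than in WT in both clones. EFNB2, a transmembrane ligand that marks arteries and binds EPHB4, had 118 and 122 CPM in KO2, 103 and 86.1 CPM in KO1 and 56.8 and 62.2 CPM in WT at day 4. At day 0 EFNB2 had 34.4 and 28.9 CPM in KO2, 33.6 and 28.2 CPM in KO1 and 28.9 and 26.1 CPM in WT. At day 4 KO2 was highest, KO1 intermediate and WT lowest with no overlap, and the difference from WT was 1.01 ± 0.11, adjusted p = 1.13e-05 in KO2. In KO1 EFNB2 gave 0.67 ± 0.11, adjusted p = 0.000809. KO2 against KO1 gave 0.34 ± 0.11, adjusted p = 0.0329, and its adjusted p was 0.303 with KO1 library 2 of day 4 left out, 0.103 with KO2 library 1 of day 4 left out and 0.167 with KO2 library 2 of day 4 left out, within a range of 0.000605 to 0.303 over the 18 alternatives. EFNA3, a GPI-anchored ligand of EPHA receptors, had 4.41 and 5.09 CPM in KO2, 4.57 and 4.47 CPM in KO1 and 4.12 and 4.32 CPM in WT at day 4. At day 0 EFNA3 had 15.5 and 12.1 CPM in KO2, 14 and 16.7 CPM in KO1 and 8.62 and 11.2 CPM in WT. It was lower at day 4 in every genotype, with a log2 fold change of -1.53 ± 0.19, adjusted p = 8.33e-06 in KO2, -1.77 ± 0.18, adjusted p = 7.13e-07 in KO1 and -1.24 ± 0.19, adjusted p = 7.4e-05 in WT, and the day 4 differences between genotypes did not pass. The ephrins lower in KO2 than in WT at day 4 were EFNA2 (-0.52), EFNB1 (-0.91) and EFNB3 (-0.67).

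EPHA2, EPHA4 and EPHB3 were the EPH receptors with the largest rises in WT, and each was lower in KO2 than in WT at day 4. EPHA2, a receptor abundant in epithelia, had 177 and 169 CPM in KO2, 308 and 294 CPM in KO1 and 297 and 229.9 CPM in WT at day 4. At day 0 EPHA2 had 59.1 and 57.6 CPM in KO2, 63.8 and 43.7 CPM in KO1 and 75 and 65.2 CPM in WT. KO2 lay below the other genotypes at day 4, with a log2 fold change of -0.60 ± 0.14, adjusted p = 0.00458 against WT, and its adjusted p was 0.0856 with WT library 1 of day 4 left out and 0.0509 with KO2 library 2 of day 4 left out, within a range of 2.39e-09 to 0.0856 over the 18 alternatives. EPHA4, which binds both ephrin classes, had 26.9 and 25 CPM in KO2, 90.3 and 84.3 CPM in KO1 and 81.6 and 66.2 CPM in WT at day 4. At day 0 EPHA4 had 14.8 and 14.9 CPM in KO2, 13.9 and 15.6 CPM in KO1 and 11.4 and 10.6 CPM in WT. KO2 stood under all KO1 and WT libraries at day 4, and the log2 fold change from WT was -1.51 ± 0.11, adjusted p = 1.47e-07 in KO2. In KO1 EPHA4 gave 0.24 ± 0.10, adjusted p = 0.12. EPHB3, known for its part in positioning cells in intestinal crypts, had 14 and 12.8 CPM in KO2, 46.2 and 46.8 CPM in KO1 and 45.8 and 36.5 CPM in WT at day 4. At day 0 EPHB3 had 14 and 11.3 CPM in KO2, 13.3 and 12 CPM in KO1 and 12 and 10.5 CPM in WT. Its day 4 libraries of KO2 were at the day 0 level (0.08 ± 0.15, adjusted p = 0.694), while WT changed, with a log2 fold change of 1.88 ± 0.14, adjusted p = 4.08e-08, and KO2 was below WT, with a log2 fold change of -1.62 ± 0.14, adjusted p = 6.52e-07.

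EPHB6 was lower than in WT in both clones, and EPHB1 and EPHA3 were higher than in WT in KO1. EPHB6, a receptor with an inactive kinase domain, had 10.6 and 11 CPM in KO2, 9.75 and 13.3 CPM in KO1 and 19.9 and 16.9 CPM in WT at day 4. At day 0 EPHB6 had 30.8 and 27.6 CPM in KO2, 30.4 and 25.9 CPM in KO1 and 33.5 and 32.2 CPM in WT. Both clones lay below WT at day 4, with a log2 fold change of -0.76 ± 0.15, adjusted p = 0.0017 in KO2. In KO1 EPHB6 gave -0.66 ± 0.15, adjusted p = 0.00668, and there its adjusted p was 0.0727 with WT library 1 of day 4 left out and 0.109 with KO1 library 1 of day 4 left out, within a range of 0.000252 to 0.109 over the 18 alternatives. EPHB1, a receptor of B-class ephrins, had 14.5 and 11.8 CPM in KO2, 22.8 and 21.3 CPM in KO1 and 16 and 15.8 CPM in WT at day 4. At day 0 EPHB1 had 19.9 and 20.8 CPM in KO2, 23.2 and 22 CPM in KO1 and 20.9 and 19.4 CPM in WT. KO1 was above WT, with a log2 fold change of 0.47 ± 0.12, adjusted p = 0.0128. KO2 was below KO1, with a log2 fold change of -0.75 ± 0.12, adjusted p = 0.000382. The adjusted p of KO1 against WT was 0.0738 with WT library 1 of day 4 left out, 0.0885 with WT library 2 of day 4 left out and 0.115 with KO1 library 1 of day 4 left out, within a range of 0.00284 to 0.115 over the 18 alternatives. EPHA3, a receptor of A-class ephrins, had 4.81 and 4.02 CPM in KO2, 5.61 and 6.12 CPM in KO1 and 4.50 and 3.09 CPM in WT at day 4. At day 0 EPHA3 had 5.71 and 5.09 CPM in KO2, 5.71 and 4.76 CPM in KO1 and 4.45 and 3.96 CPM in WT. KO1 lay above WT, with a log2 fold change of 0.64 ± 0.21, adjusted p = 0.0442. The adjusted p was above 0.05 under 11 of 18 alternatives, 9 of them leaving out 1 library (WT library 1 of day 0, WT library 2 of day 0, KO2 library 1 of day 0, KO2 library 2 of day 0, WT library 2 of day 4, KO1 library 1 of day 4, KO1 library 2 of day 4, KO2 library 1 of day 4, KO2 library 2 of day 4), within a range of 0.0159 to 0.371 over the 18 alternatives. EPHB2 was the other EPH receptor lower in KO2 than in WT, with a log2 fold change of -0.71 ± 0.12.

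SLIT2 was higher in KO1 than in WT, and not detectably different in KO2. SLIT2, a large secreted repellent that binds ROBO1, had 48.3 and 44 CPM in KO2, 109 and 94 CPM in KO1 and 61.6 and 47.6 CPM in WT at day 4. At day 0 SLIT2 had 23.3 and 26.5 CPM in KO2, 22.4 and 40.6 CPM in KO1 and 18.7 and 20.3 CPM in WT. KO1 lay above KO2 and WT at day 4, and KO2 and WT overlapped. The difference from WT was -0.24 ± 0.20, adjusted p = 0.399 in KO2 and 0.90 ± 0.19, adjusted p = 0.00402 in KO1. The KO1 adjusted p was 0.0765 with WT library 2 of day 4 left out and 0.054 with KO1 library 1 of day 4 left out, within a range of 7.78e-14 to 0.0765 over the 18 alternatives. At day 0 the second KO1 library, of the pair that differed most, had 40.6 CPM, against 22.4 CPM in the first. ROBO1, the main receptor of SLIT2, had 160.1 and 150.1 CPM in KO2, 203 and 185 CPM in KO1 and 141 and 147.8 CPM in WT at day 4. At day 0 ROBO1 had 244 and 246 CPM in KO2, 227 and 325 CPM in KO1 and 219.6 and 227 CPM in WT. It was lower at day 4 than at day 0 in every genotype, and higher in KO1 than in WT at day 4, with a log2 fold change of 0.42 ± 0.12, adjusted p = 0.0229. That adjusted p was 0.155 with WT library 1 of day 4 left out, 0.0966 with WT library 2 of day 4 left out, 0.176 with KO1 library 1 of day 4 left out and 0.0549 with KO1 library 2 of day 4 left out, within a range of 1.82e-05 to 0.176 over the 18 alternatives. SLIT1 was lower in KO2 than in WT, with a log2 fold change of -1.92 ± 0.31, at 2.67 and 2.90 CPM in WT.

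At day 0 no guidance gene passed the test in either clone. Of the 68 members 0 were called in KO2 against WT by edgeR and 0 by DESeq2, where 0.0536% of all features were higher and 0.0893% lower, and 5 members had an unadjusted p below 0.05. In KO1 against WT 0 were called by either tool, where 0.0596% of all features were higher and 0.179% lower, and 7 members had an unadjusted p below 0.05. The members' median log2 fold change was 0.04 in KO2 and 0.08 in KO1. Without KO1 day 0 replicate 1, so that the KO1 group was replicate 2 alone and assumed to vary like the other groups, 13 members were called higher and 6 lower in KO1, among 1939 features higher and 1848 lower of 17292 tested. Without replicate 2 the counts were 0 and 0, among 12 features higher and 30 lower of 17232. In KO2 members were also called higher without either KO1 day 0 library, where more of all features were called higher too.

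**Figure D4:**
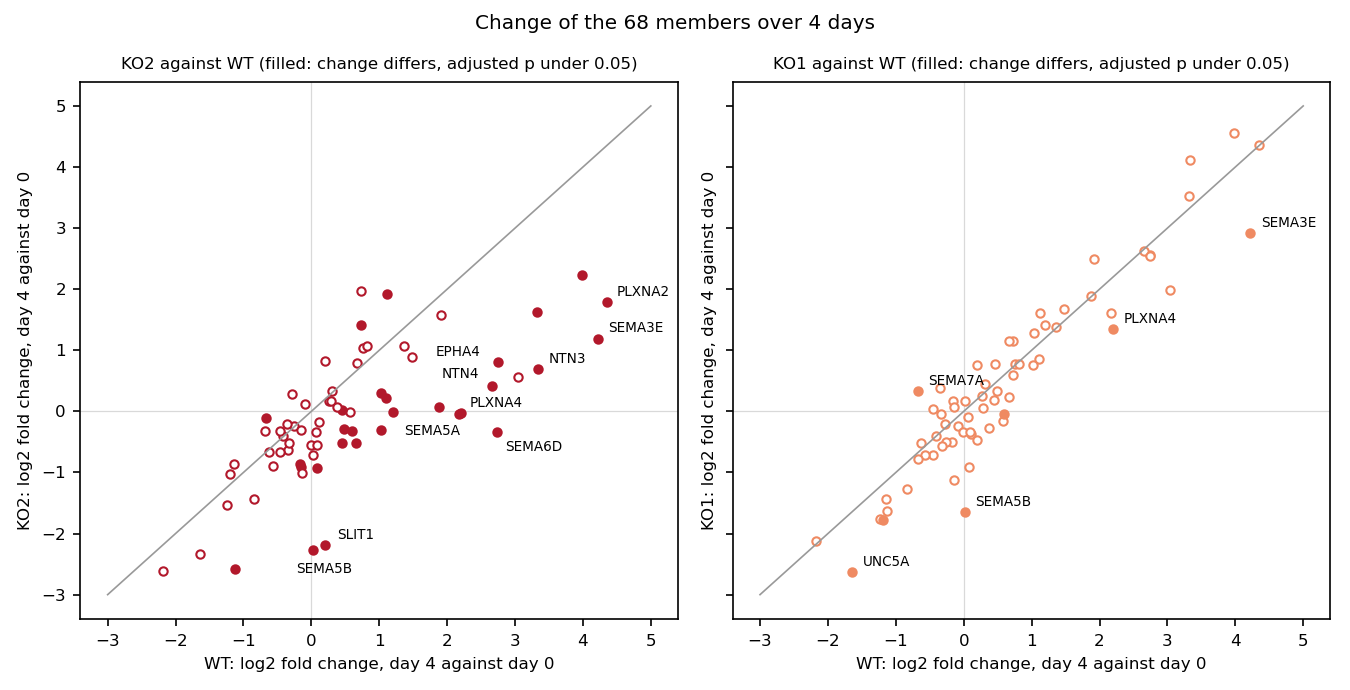
Log2 change between day 4 and day 0 of each member in KO2 and in KO1 (vertical axes) against its change in WT (horizontal axis), with a line where both are equal and filled points where the changes differed at an adjusted p below 0.05. PLXNA2 (1.79 in KO2, 4.37 in KO1 and 4.35 in WT) lies under the line in KO2 and near it in KO1. SEMA3E lies under the line in both clones, where its change minus that in WT was -3.03 in KO2 and -1.30 in KO1.

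The day change itself was tested for a difference between genotypes with the interaction term. The change was smaller or more negative in KO2 than in WT for 26 members and larger for 3, where 7.5% of all features had a lower and 6.37% a higher change. In KO1 it was lower for 6 members and higher for 1, where 4.81% of all features were lower and 4.99% higher. Of the values that passed in KO2, the lowest were those of SEMA6D (-3.08 ± 0.28, adjusted p = 6.65e-06), SEMA3E (-3.03 ± 0.33, adjusted p = 3.12e-05) and NTN3 (-2.64 ± 0.77, adjusted p = 0.0331). The value of SEMA6D holds a day 0 difference that did not pass, with 9.27 and 9.60 CPM in KO2 above 4.75 and 6.22 CPM in WT. The value of NTN3 rests on day 0 libraries with 3 and 4 counts in KO2 and 2 and 4 counts in WT, about the floor of 3 counts. Of those that passed in KO1, the lowest were those of SEMA5B (-1.67 ± 0.14, adjusted p = 5.7e-06), SEMA3E (-1.30 ± 0.28, adjusted p = 0.00978) and UNC5A (-0.99 ± 0.28, adjusted p = 0.0356). In KO1 the adjusted p of SEMA3E was 0.0581 with WT library 2 of day 0 left out, within a range of 0.000655 to 0.0581 over the 18 alternatives. That of UNC5A was 0.128 with WT library 2 of day 0 left out, 0.0837 with WT library 1 of day 4 left out, 0.119 with WT library 2 of day 4 left out, 0.184 with KO1 library 1 of day 4 left out and 0.0567 with only the groups compared, within a range of 0.00532 to 0.184 over the 18 alternatives. Without either KO1 day 0 library, more members had a higher change in both clones, and more had a lower change in KO1. The calls over all features rose as well, in both directions and in both clones. Such a fit leaves 1 library in the KO1 day 0 group.

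Proteins that work with the guidance receptors were looked at as a list of 56 genes, of which 55 were in the files and tested: netrin co-receptors, FLRT and RGM proteins, collapsin response mediators, MICAL oxidases and others. In KO2 8 (14.5%) were higher than in WT at day 4 and 14 (25.5%) lower, where 13.5% of all features were higher and 14.5% lower. In KO1 14 (25.5%) were higher and 7 (12.7%) lower, where 10.5% of all features were higher and 9.42% lower. Between KO2 and KO1 4 (7.27%) were higher and 20 (36.4%) lower, where the shares of all features were 10.8% and 14.3%. DSCAM, a netrin receptor, had a log2 fold change of -2.31 ± 0.22, adjusted p = 2.07e-06 in KO2 against WT, and FLRT3, an adhesion protein that binds UNC5 and ROBO receptors, of -1.85 ± 0.13, adjusted p = 7.96e-08. MET, a receptor tyrosine kinase that couples to class B plexins, was higher in KO2, with a log2 fold change of 0.74 ± 0.13, adjusted p = 0.000532. In KO1 NTNG1, a GPI-anchored netrin G, was higher, with a log2 fold change of 1.48 ± 0.25, adjusted p = 0.0008, and RGMA, a ligand of neogenin, had -1.13 ± 0.14, adjusted p = 5.79e-05. In WT FLRT3 (5.46 ± 0.19, adjusted p = 7.29e-12) and DSCAM (4.89 ± 0.31, adjusted p = 6.53e-09) had the largest increases by day 4, and DPYSL5 (-2.31 ± 0.15, adjusted p = 6.07e-09), a collapsin response mediator, the largest decrease.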

How the data were processed

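Gene expression was measured by RNA-seq in 12 libraries. The authors deposited raw counts of reads for each feature, and the submitters' processing notes name the aligner Bowtie2 2.1.0, the counter HTSeq 0.6.1 and the build hg19. The strand setting of the counting and its annotation are not given in sources used here. The spans of 14 of the 68 members overlap another feature on GRCh38. Their counts may lack reads set aside as ambiguous, or hold reads of the other feature. These are EPHA1, EPHB2, EPHB4, NTN4, NTN5, PLXNA3, SEMA4D, SEMA4G, SEMA5A, SLIT1, SLIT2, SLIT3, UNC5A and UNC5B. Ambiguous reads came to 1.17% to 1.41% of each library. Reads outside any feature came to 29.2% to 30.5% of each library and stayed out of library sizes. Another 8 samples, of SMAD3 ChIP-seq, were not analysed here.

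Counts as deposited were filtered with filterByExpr, which kept 16792 of 54435 features, scaled by TMM factors (0.937 to 1.05) and tested with edgeR 4.0.16 (limma 3.58.1, R 4.3.3) by the quasi-likelihood F test. The fit held all 12 libraries in 6 groups, with 6 residual degrees of freedom and no covariate, and Benjamini-Hochberg adjustment ran over all features. CPM values use the scaled library sizes, the standard error is the log2 fold change divided by the root of F, and the threshold was an adjusted p of 0.05. DESeq2 1.42.0, RLE and upper-quartile factors, no filter on low counts, a fit of only the groups compared, a replicate block and leaving out each library were alternatives.

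A value in every library is given for 32 members. These were the largest called changes each way, up to 12 for WT day 4 against day 0, 8 for each day 4 comparison and 5 for each day 0 comparison, with a mean of at least 5 CPM in the higher group. Members, lists and partner genes were chosen with earlier results of these data known. Figures were drawn with matplotlib 3.10.9.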

Additional observations from a re-analysis of the deposited data

Results flagged for a closer look

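The change between day 4 and day 0 was compared between a clone and WT by the interaction term of edgeR's quasi-likelihood test. At an adjusted p below 0.05 it differed for 23 values of the 32 members described in full, each tested in 2 clones. These members were chosen for large called changes in the same libraries, so a high count was built in. Over all features 7.5% had a lower and 6.37% a higher change in KO2, and 4.81% a lower and 4.99% a higher change in KO1. Each value here is the log2 change in the clone minus that in WT.

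In KO2 the semaphorin receptors had lower changes, for PLXNA2 (-2.56), PLXNA4 (-2.24) and NRP1 (-1.70). Among the semaphorins and netrins the values were -3.08 for SEMA6D, -3.03 for SEMA3E, -2.29 for SEMA5B, -2.22 for SEMA5A, -1.44 for SEMA4A and -0.92 for SEMA6C, and -2.25 for NTN4 and -1.76 for NTN1. The EPH receptors EPHA4 and EPHB3 had -1.95 and -1.80. The changes were higher in KO2 for EFNB2 (0.80), SEMA3A (0.68) and UNC5D (0.56).

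In KO1 the changes were lower for SEMA5B (-1.67), SEMA3E (-1.30), UNC5A (-0.99), PLXNA4 (-0.86), SEMA6C (-0.64) and SEMA4D (-0.58). The change of SEMA7A was higher in KO1, at 1.005.

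For NRP1 in KO2 the adjusted p was 0.0668 with WT library 2 of day 0 left out and 0.15 with KO2 library 2 of day 0 left out, within a range of 0.000138 to 0.15 over the 18 alternatives. For SEMA3E in KO1 the adjusted p was 0.0581 with WT library 2 of day 0 left out, within a range of 0.000655 to 0.0581 over the 18 alternatives. For SEMA6C in KO1 the adjusted p was 0.161 with WT library 2 of day 0 left out, 0.106 with WT library 1 of day 4 left out, 0.071 with WT library 2 of day 4 left out, 0.175 with KO1 library 1 of day 4 left out, 0.0527 with KO2 library 2 of day 4 left out and 0.084 with only the groups compared, within a range of 0.00883 to 0.175 over the 18 alternatives. For UNC5A in KO1 the adjusted p was 0.128 with WT library 2 of day 0 left out, 0.0837 with WT library 1 of day 4 left out, 0.119 with WT library 2 of day 4 left out, 0.184 with KO1 library 1 of day 4 left out and 0.0567 with only the groups compared, within a range of 0.00532 to 0.184 over the 18 alternatives. For UNC5D in KO2 the adjusted p was above 0.05 under 6 of 18 alternatives, 6 of them leaving out 1 library (WT library 1 of day 0, WT library 2 of day 0, KO2 library 1 of day 0, KO2 library 2 of day 0, WT library 1 of day 4, KO2 library 2 of day 4), within a range of 0.000173 to 0.093 over the 18 alternatives. The KO2 and KO1 values share the 4 WT libraries. In a principal component analysis of the 12 libraries, replicate 2 of KO1 at day 0 stood at 33.3 on the fourth component, against -7.38 for replicate 1 of the same group and -21.6 to 5.52 over all other libraries.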

How the results depend on the processing

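Only results that passed in the main fit were followed under the alternatives for the members described in full. A newly gained call could therefore not be counted among them. Of 2898 such values under an alternative, 2784 still passed, 114 no longer passed and 0 changed direction. With only the groups compared in the fit, the members lower in KO1 than in WT at day 4 were 20, those higher in KO2 than in WT 8 and those higher in KO2 than in KO1 9. The calls over all features rose too. They were 2556 of 15831, 3156 of 15710 and 3240 of 15690, against 1582, 2266 and 1810 of 16792 in the main fit. Without a filter on low counts KO2 at day 0 had 1 member higher than WT, KO1 at day 0 had 3 higher and 1 lower, and 3 members had a higher day change in KO1 than in WT. Of all 28251 features in that fit 60 were higher in KO2 at day 0, and 233 were higher and 150 lower in KO1. The day change in KO1 was higher for 1061 of all features. In the main fit these 4 counts were 9, 10, 30 and 838 of 16792. The cause was not tested.

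The labels do not say that equal replicate numbers mark a shared culture or batch, and the main fit did not pair the libraries by number. The correlation of the replicate differences between groups was -0.0403 to 0.155, which cannot decide whether the numbers mark a pairing. With the replicate number as a block 3 members had a higher day change in KO1 than in WT, against 1 without it. Over all features 1019 did with the block and 838 without it. With the block, at day 4 33 members were lower and 6 higher in KO2 than in WT, and 14 lower and 10 higher in KO1. Over all features 2584 were then lower and 2526 higher in KO2, and 1742 lower and 1920 higher in KO1. Without the block those counts were 2431, 2266, 1582 and 1755.

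With 1 library left out at a time, the members higher than WT at day 4 numbered 3 to 9 in KO2 and 2 to 15 in KO1, and those lower in KO1 6 to 17. Those higher in KO2 than in KO1 numbered 4 to 9. At day 0 KO2 had 0 to 2 members higher than WT, and KO1 had 0 to 13 higher and 0 to 6 lower. The day change was higher than in WT for 2 to 5 members in KO2 and 1 to 5 in KO1, and lower for 4 to 12 in KO1. In each of these comparisons the number of all features called also moved with the library left out. Upper-quartile factors were added after the data were seen. With 2 libraries a group, small changes of members at a few CPM could not be detected, and 3 counts set the floor.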

Other observations

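Of the 68 members 8 passed the test in none of the 10 comparisons: the ephrin EFNA4, the EPH receptors EPHA5, EPHA6, EPHA8 and EPHA10, the plexin PLXNC1, the receptor ROBO2 and the class 3 semaphorin SEMA3B. EFNA4 had a median of 17.7 CPM over the 12 libraries, with a lowest of 15.3 and a highest of 20.6 CPM. EPHA8 had a median of 8.69 CPM, with 6.36 to 10.3 CPM, ROBO2 5.91 CPM with 4.25 to 8.19 CPM, and PLXNC1 5.48 CPM with 3.81 to 7.77 CPM. That they did not pass does not show that they did not differ: the lowest adjusted p among the 10 comparisons was 0.0588 for PLXNC1 and 0.0713 for EPHA5.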
